A study of Mus musculus with 9 samples.

Results

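Cytochrome P450 genes of families 1 to 3, the enzymes that oxidise drugs, toxins, steroids and fatty acids in the liver, were followed across 9 mouse liver RNA-seq libraries. Members were all protein-coding genes whose symbol begins with Cyp1a, Cyp2a to Cyp2j, Cyp2r, Cyp2s, Cyp2u or Cyp3a and a number, with an average level across the 9 libraries of 0.5 FPKM or more. FPKM is a read count scaled by exon length and by library size. Of 57 protein-coding genes that matched by symbol, 41 reached that level, out of 11852 genes of any kind that did and 54532 in the table. Just inside the level stood Cyp3a41b (0.846 FPKM), Cyp2d11 (1.0502 FPKM) and Cyp3a41a (1.11 FPKM). Just outside it stood Cyp1a1 (0.457 FPKM), Cyp2g1 (0.420 FPKM) and Cyp3a16 (0.365 FPKM), and 7 of the 16 genes outside were at 0 in every library. Cyp2s1 matched but did not reach the level. Cyp3a41a, Cyp3a41b, Cyp3a44, Cyp2a4 and Cyp2b13, 5 of the 41, passed the level only through wild type replicate 3.

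The 3 groups of 3 liver libraries came from Cth knockout mice given 1% betaine in the drinking water, Cth knockout mice on drinking water without it, and wild type mice on drinking water. The labels do not state how the Cth allele was made, nor strain, sex, age, batch or strand, and they do not say that replicates are separate animals, so p-values measure only the spread between these libraries. Cth codes for the enzyme that cleaves cystathionine to yield cysteine and that also forms hydrogen sulphide. Betaine is a methyl donor that the liver enzyme Bhmt uses to turn homocysteine back into methionine. The design text names chronic liver disease as the setting in which the enzyme was studied.

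A P450 enzyme holds a haem group, receives electrons from the reductase Por or from cytochrome b5, and inserts an oxygen atom into its substrate. Most hepatic members are transcribed in hepatocytes, often in those around the central vein, under receptors that sense chemicals. The aryl hydrocarbon receptor Ahr drives Cyp1a genes, the constitutive androstane receptor (CAR, Nr1i3) drives Cyp2b10, and the pregnane X receptor (PXR, Nr1i2) drives Cyp3a11. In mice many Cyp2 and Cyp3a genes are also sex-biased through the pattern of growth hormone secretion. Cyp2b9, Cyp2b13, Cyp2a4, Cyp2c40, Cyp2c69, Cyp3a41a, Cyp3a41b and Cyp3a44 are known as female-biased, and Cyp2d9 and Cyp2u1 as male-biased.

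The libraries held 15184973 to 17473958 reads recovered from the FPKM values, and 3 reads in a gene of 1 kb equalled 0.162 to 0.222 FPKM, for counting error only. Cth itself measured 0.309 to 0.781 FPKM in the betaine group, 0.278 to 0.770 FPKM in the knockout and 219 to 285 FPKM in the wild type. The 5 hepatocyte markers summed to 29700 to 41970 FPKM in the betaine group, 37620 to 48960 FPKM in the knockout and 43600 to 62940 FPKM in the wild type, so the labelled tissue carried its defining transcripts. Wild type replicate 3 stood apart. It alone held the X-inactivation RNA Xist at 26.6 FPKM, where every other library had at most 0.0124 FPKM, and it alone had 0 FPKM for the Y-linked genes Ddx3y, Eif2s3y, Uty and Kdm5d. Mup20, a male-biased urinary protein gene, measured 55.3 FPKM there and 1991 to 4724 FPKM elsewhere. By these RNAs the wild type group held 2 patterns, while all libraries of both knockout groups had Y-linked RNA and almost no Xist. The labels give no sex, and the calls below are also given without wild type replicate 3.

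**Figure D1:**
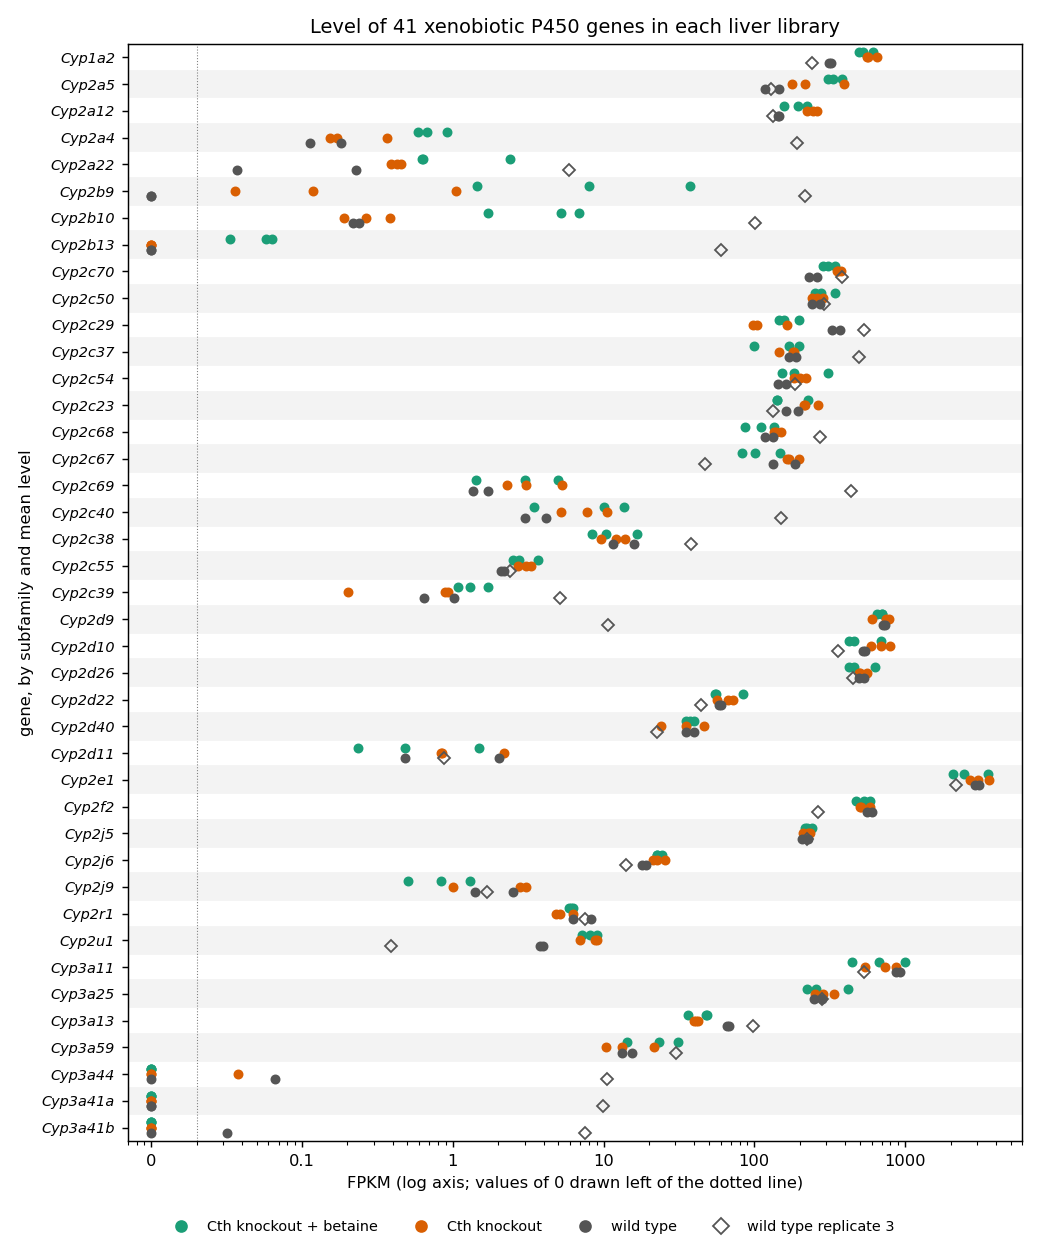
Level of each of the 41 genes in each library, in FPKM on a log axis, with values of 0 drawn left of the dotted line. Rows follow subfamily and mean level. Open diamonds mark wild type replicate 3, which lies far to the right for Cyp2b9 (215 FPKM), Cyp2a4 (191 FPKM) and Cyp2c69 (438 FPKM) and far to the left for Cyp2d9 (10.7 FPKM).

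On the FPKM scale the members spanned a wide range of levels. Cyp2e1, which oxidises ethanol and paracetamol, was the most abundant, at 2077 to 3542 FPKM in the betaine group, 2699 to 3615 FPKM in the knockout and 2186 to 3070 FPKM in the wild type. Its groups overlapped in every pairing. Cyp3a11, the main hepatic Cyp3a enzyme, followed at 443 to 1001 FPKM in the betaine group, 539 to 867 FPKM in the knockout and 534 to 919 FPKM in the wild type, again with overlap. All members together summed to 7727 to 11035 FPKM in the betaine group, 9198 to 10306 FPKM in the knockout and 8603 to 9262 FPKM in the wild type. These sums were 1.70% to 2.31%, 1.72% to 1.76% and 2.06% to 2.30% of all FPKM in the same order of groups.

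Leaving out wild type replicate 3, the steadiest member across the other 8 libraries was Cyp2j5, an arachidonic acid epoxygenase, with a coefficient of variation of 5.23%. Cyp2d9, a testosterone hydroxylase, and Cyp2f2, which activates naphthalene, were the next steadiest at 7.79% and 8.57%. Those 8 libraries held Cyp2d9 at 605 to 777 FPKM and Cyp2f2 at 472 to 601 FPKM, whereas wild type replicate 3 held 10.7 and 265 FPKM. At the other end were low or sex-biased genes, with coefficients of variation of 283% for Cyp3a41b, 216% for Cyp2b9, 194% for Cyp3a44, 145% for Cyp2b13 and 140.4% for Cyp2b10. Cyp3a41a was at 0 in all 8 and has none.

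**Figure D2:**
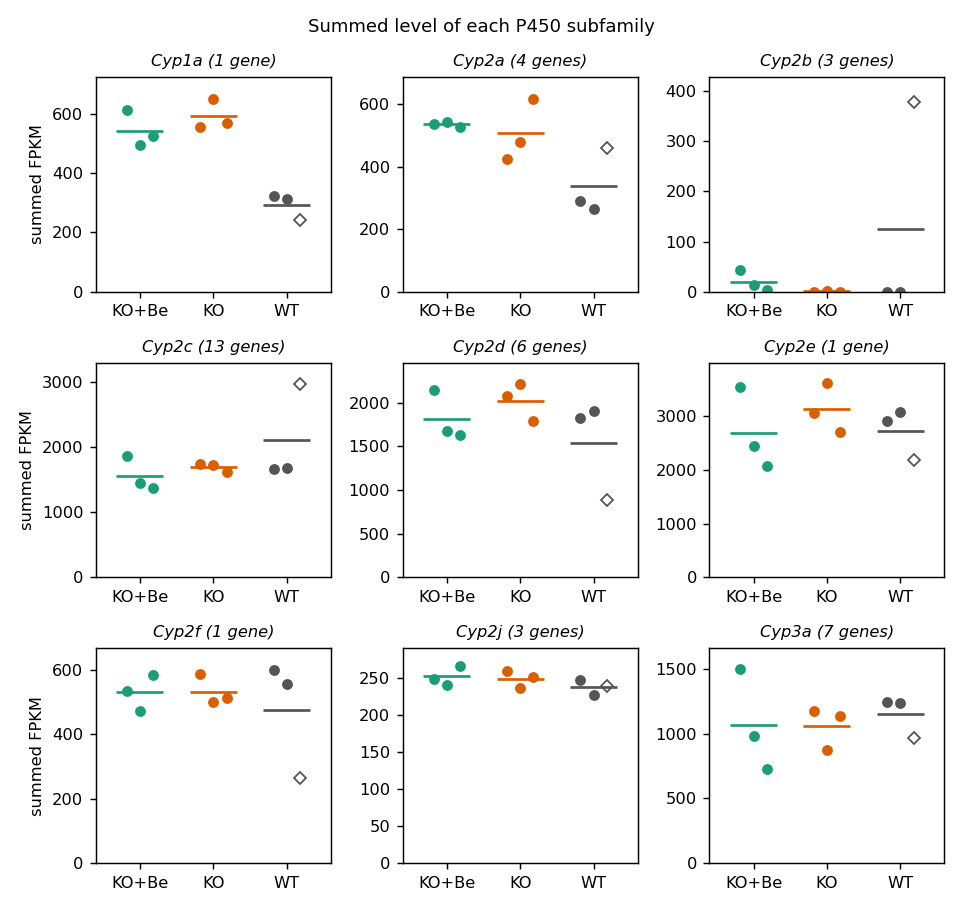
Summed FPKM of each subfamily in each library for the betaine-supplemented knockout (KO+Be), the knockout (KO) and the wild type (WT), each panel with a linear axis from 0. Points are libraries, horizontal lines are means of 3 libraries, and open diamonds are wild type replicate 3. That library is the highest for Cyp2b (377 FPKM) and Cyp2c (2972 FPKM) and the lowest for Cyp2d (886 FPKM). Cyp2r and Cyp2u, with 1 gene each, are not drawn.

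Summed by subfamily, Cyp1a was higher in every library of both knockout groups than in every wild type library, and Cyp2a was higher than in wild type replicates 1 and 2. The 4 Cyp2a genes summed to 537, 542.5 and 528 FPKM in the betaine group, 425, 479 and 618 FPKM in the knockout and 289, 264 and 459 FPKM in the wild type. The high wild type value was replicate 3, in which Cyp2a4 supplied 191 FPKM. The 13 Cyp2c genes summed to 1375 to 1859 FPKM in the betaine group, 1619 to 1740 FPKM in the knockout, 1656 and 1681 FPKM in wild type replicates 1 and 2, and 2972 FPKM in wild type replicate 3. The 6 Cyp2d genes summed to 1627 to 2142 FPKM in the betaine group, 1786 to 2210 FPKM in the knockout and 886 to 1904 FPKM in the wild type, with replicate 3 the lowest. The 7 Cyp3a genes summed to 728.5 to 1500.4 FPKM, 875 to 1173 FPKM and 970 to 1247 FPKM in the same order of groups, which overlapped. Sums are descriptions without a test.

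Reads of similar copies could not be assigned with certainty, because read length and the handling of reads with several matches are not given in the sources used here. For 25 of the 41 members more than 10% of the 50-base windows of their GENCODE transcripts also occurred in another gene, and for 10 members more than 10% of the 100-base windows did. Cyp3a41a and Cyp3a41b shared 93.7% and 93.5% of 50-base windows with each other and are best read as a pair. Cyp2a4 shared 36.1% of its windows with Cyp2a5, and Cyp2c40 shared 42.1% with Cyp2c69. Cyp2c23, Cyp2c70, Cyp2f2, Cyp2j9, Cyp2r1 and Cyp3a13, 6 members, shared none. The kit and counting settings do not state strand, so overlapping antisense transcripts cannot be told apart from these genes.

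The comparison of the Cth knockout with the wild type asked which members differ when the enzyme is missing. Cyp1a2, Cyp2a12, Cyp2a5, Cyp2j6 and Cyp2u1 rose in the knockout and Cyp2c29 and Cyp3a13 fell. The counts were 5 higher and 2 lower of 41, with 11 at an unadjusted p under 0.05, and the median log2 fold change of the members was 0.03. Among all 11852 genes tested, 12.8% were called higher and 12.7% lower, with a median of 0.02, so the share of members called higher was near that of all genes and the share called lower was under it. Calls here and below rest on limma over all 11852 genes with Benjamini-Hochberg adjusted p under 0.05, on log2(FPKM + 0.5), which understates the change of low genes, and fold changes are ± SE with 3 libraries per group. In bulk liver, fewer cells of a type and less RNA per cell cannot be told apart.

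With wild type replicate 3 left out the counts were 4 higher and 2 lower of 41, against 9.99% and 11.7% of all genes, and Cyp1a2, Cyp2a12, Cyp2u1, Cyp2c29 and Cyp3a13 were called in both fits. Cyp2a5 and Cyp2j6 lost their calls, and Cyp2c70 was called in their place.

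**Figure D3:**
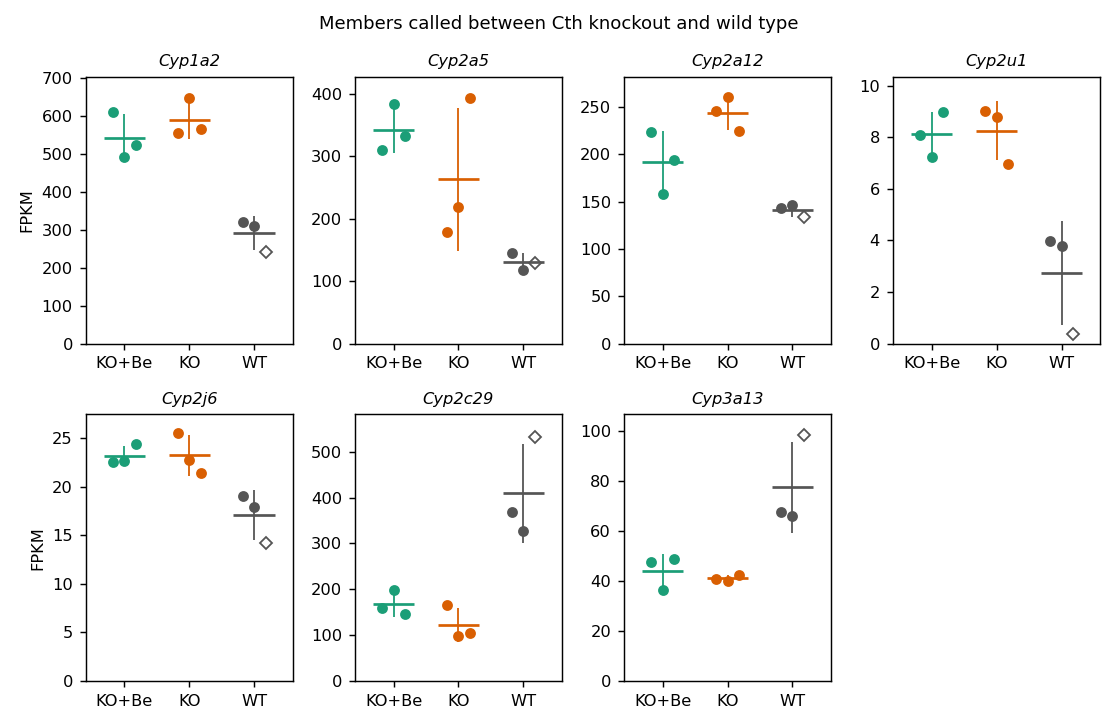
FPKM of the 7 members called between the knockout and the wild type, each panel with a linear axis from 0. Points are libraries of the betaine-supplemented knockout (KO+Be), the knockout (KO) and the wild type (WT), lines are means and SD of 3 libraries, and open diamonds are wild type replicate 3. All knockout libraries lie above all wild type libraries in the first 5 panels and below them for Cyp2c29 and Cyp3a13.

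Cyp1a2 metabolises caffeine and aromatic amines and is a target of Ahr. The gene (ENSMUSG00000032310) lies on chromosome 9, bases 57676937 to 57683703, minus strand, of GRCm38 in GENCODE M21. It measured 555, 649 and 567 FPKM in the knockout, against 322, 311 and 241 FPKM in the wild type, so that the groups did not overlap. The means were 591 ± 51.1 FPKM and 291 ± 44.1 FPKM (SD, n = 3 each), a log2 fold change of 1.03 ± 0.16 (limma adjusted p = 0.00614). Without wild type replicate 3 it was 0.90 (limma adjusted p = 0.00909).

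Cyp2a12, a steroid hydroxylase (chromosome 7, bases 27029081 to 27037375), measured 246, 261 and 225 FPKM in the knockout, against 143, 146 and 133 FPKM in the wild type. The lowest knockout library lay well above the highest wild type one, and the log2 fold change was 0.79 ± 0.15 (limma adjusted p = 0.00909), or 0.75 without wild type replicate 3 (limma adjusted p = 0.0177). It shared 27.5% of its 50-base windows with Cyp2a22, which stood at 0.389 to 0.451 FPKM in the knockout and 0.0369 to 5.91 FPKM in the wild type.

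Cyp2a5, the coumarin and nicotine hydroxylase (chromosome 7, bases 26835305 to 26843548), measured 178, 218 and 392 FPKM in the knockout, against 145, 118 and 129 FPKM in the wild type. Knockout replicate 3 was the highest, and the groups did not overlap. The log2 fold change was 0.93 ± 0.26 (limma adjusted p = 0.0302). The adjusted p ran from 0.0561 to 0.0726 whichever wild type library was left out, and it was 0.067 without knockout replicate 2 and 0.0569 without knockout replicate 3, where the change was 0.60.

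Cyp2u1, a fatty acid hydroxylase (chromosome 3, bases 131288441 to 131303227), measured 9.02, 8.81 and 6.97 FPKM in the knockout, against 3.997, 3.79 and 0.390 FPKM in the wild type. The log2 fold change was 1.76 ± 0.54 (limma adjusted p = 0.0429), and without the very low wild type replicate 3 it was 0.99 ± 0.15 (limma adjusted p = 0.00909). The call ended when any knockout library or any betaine library was left out, with limma adjusted p of 0.0599 to 0.119.

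Cyp2j6, an epoxygenase (chromosome 4, bases 96516138 to 96553661), measured 25.5, 22.8 and 21.4 FPKM in the knockout, against 19.0, 17.9 and 14.2 FPKM in the wild type. Its log2 fold change was 0.44 ± 0.14 (limma adjusted p = 0.0418). Without wild type replicate 3 it was 0.32 (limma adjusted p = 0.0877). The call held without betaine replicate 1 and ended when any other single library was left out, with limma adjusted p of 0.0513 to 0.124. On TPM scaling the change was 0.03.

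Cyp2c29, which forms epoxides of arachidonic acid, was the member that fell most among those called. The gene (ENSMUSG00000003053) lies on chromosome 19, bases 39269405 to 39330713, plus strand. It measured 165, 98.5 and 104 FPKM in the knockout, against 370, 328 and 532 FPKM in the wild type. The means were 122 ± 37.0 FPKM and 409.6 ± 108 FPKM (SD, n = 3 each), a log2 fold change of -1.75 ± 0.25 (limma adjusted p = 0.00567) and of -1.54 without wild type replicate 3 (limma adjusted p = 0.00909). It shared 2.08% of its 50-base windows with other genes. With all libraries the other 12 Cyp2c members were not called between these groups, and Cyp2c37, Cyp2c38, Cyp2c39, Cyp2c40, Cyp2c68, Cyp2c69 and Cyp2c70, as well as Cyp2c29 itself, were higher in wild type replicate 3 than in every other library.

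Cyp3a13 (chromosome 5, bases 137892932 to 137921619, minus strand), a Cyp3a gene also known from intestine, measured 40.9, 39.9 and 42.5 FPKM in the knockout, against 67.8, 66.2 and 98.5 FPKM in the wild type. The knockout libraries lay close together and below every wild type one, with a log2 fold change of -0.88 ± 0.18 (limma adjusted p = 0.0108) and of -0.70 without wild type replicate 3 (limma adjusted p = 0.0162). The other 6 Cyp3a members were not called. Cyp3a11 measured 867, 539 and 732 FPKM in the knockout and 919, 872 and 534 FPKM in the wild type, with a log2 fold change of -0.11 ± 0.33, or -0.36 ± 0.32 without wild type replicate 3.

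Cyp2c70, which makes the muricholic acids of mouse bile, measured 376, 360.3 and 352 FPKM in the knockout, against 229.9, 259 and 381 FPKM in the wild type. With all libraries the log2 fold change was 0.36 ± 0.19 (limma adjusted p = 0.186), since wild type replicate 3 lay above the knockout. Without that library it was 0.57 ± 0.14 (limma adjusted p = 0.0227).

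The size of these changes also depended on the scaling between libraries. The deposited values follow median-of-ratios size factors, and rescaled to TPM, where each library sums to the same total, the median of all genes in this comparison shifted to -0.32. Relative to that median, Cyp1a2 stood at 0.93, Cyp2a12 at 0.69, Cyp2a5 at 0.83, Cyp2j6 at 0.36, Cyp2u1 at 1.74, Cyp2c29 at -1.84 and Cyp3a13 at -0.97. The TPM calls were 2 higher (Cyp1a2 and Cyp2a12) and 4 lower (Cyp2c29, Cyp3a13, Cyp2j5 and Cyp2r1) of 41, against 4.93% and 30.7% of all genes, beside a split of all calls of 13.85% higher on TPM and 50.15% on FPKM. Across genes the log2 fold change was also related to exon length (Spearman rho = -0.46 over 11849 genes, a description), and the members were shorter than most, with a median exon length of 2060 bases against 3798. With that trend removed Cyp1a2 was 0.76 and Cyp2c29 -1.84, both called. The calls were then 4 higher and 3 lower of 41, against 1015 higher and 1104 lower of 11849 genes. Cyp2a5 lost its call, and Cyp2r1 was called lower. The median of the members was -0.18, with 14 of 41 above 0, against 21 of 41 in the main fit. That of all genes was 0.01.

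The largest changes among members that were not called were those of Cyp2a4 (-2.57 ± 1.95), Cyp2b13 (-2.30 ± 1.64), Cyp2b10 (-2.29 ± 1.73) and Cyp2b9 (-2.24 ± 2.28), with limma adjusted p of 0.325 to 0.490. All rested on wild type replicate 3. Cyp2a4, a steroid hydroxylase, measured 0.170, 0.365 and 0.155 FPKM in the knockout, against 0.183, 0.113 and 191 FPKM in the wild type. Cyp2b13 was at 0 in all 3 knockout libraries and in wild type replicates 1 and 2, and at 59.7 FPKM in wild type replicate 3, so its fitted change depends on the pseudocount. Without that library the log2 fold changes of Cyp2a4, Cyp2b10 and Cyp2b9 were 0.16, 0.09 and 0.68, on the other side of 0, and that of Cyp2b13 was 0.00. With the exon length trend also removed they were -0.12 for Cyp2a4, -0.12 for Cyp2b10, 0.42 for Cyp2b9 and -0.26 for Cyp2b13.

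Proximal promoters of Cyp1a2, Cyp2a5, Cyp2c29 and Cyp3a13 are shown because these 4 members were called in both comparisons with the wild type. Each window runs from 250 bases before to 50 bases after the start in RefSeq (GRCm38.p6), 5′ to 3′ on the gene's strand. A window was found for 37 of the 41 members. Capitals mark matches, on either strand, to GCGTG (the core of the Ahr site), TTCNNNGAA (the STAT5 site), AGGTCA (the core bound by nuclear receptors) and TATAAA (the TATA box), which do not overlap in these windows. They lie at chr9:57683606-57683905 (minus strand), chr7:26835089-26835388 (plus), chr19:39286835-39287134 (plus) and chr5:137921570-137921869 (minus), and the RefSeq start of Cyp2c29 lies downstream of the start of its GENCODE record.
Cyp1a2: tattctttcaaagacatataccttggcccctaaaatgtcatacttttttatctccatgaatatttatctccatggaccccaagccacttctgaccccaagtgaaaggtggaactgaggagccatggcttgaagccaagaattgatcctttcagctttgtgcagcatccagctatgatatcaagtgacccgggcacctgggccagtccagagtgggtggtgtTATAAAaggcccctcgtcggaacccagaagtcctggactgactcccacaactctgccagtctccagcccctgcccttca
Cyp2a5: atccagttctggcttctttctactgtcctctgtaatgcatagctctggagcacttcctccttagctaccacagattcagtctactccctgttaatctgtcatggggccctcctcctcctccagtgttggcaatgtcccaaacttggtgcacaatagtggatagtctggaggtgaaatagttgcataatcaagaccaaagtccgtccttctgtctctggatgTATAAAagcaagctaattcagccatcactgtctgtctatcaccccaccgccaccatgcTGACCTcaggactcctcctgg
Cyp2c29: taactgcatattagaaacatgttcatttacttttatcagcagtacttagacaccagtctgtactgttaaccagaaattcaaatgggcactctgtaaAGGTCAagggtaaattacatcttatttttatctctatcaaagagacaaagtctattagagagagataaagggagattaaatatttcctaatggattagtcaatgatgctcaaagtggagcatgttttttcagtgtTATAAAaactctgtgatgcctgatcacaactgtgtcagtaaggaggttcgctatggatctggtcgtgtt
Cyp3a13: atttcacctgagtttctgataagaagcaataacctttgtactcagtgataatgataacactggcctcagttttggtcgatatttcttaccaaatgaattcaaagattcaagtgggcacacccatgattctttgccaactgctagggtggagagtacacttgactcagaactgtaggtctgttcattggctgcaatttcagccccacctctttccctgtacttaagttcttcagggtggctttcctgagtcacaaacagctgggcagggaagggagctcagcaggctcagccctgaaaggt
Cyp1a2 holds 1 TATA box, Cyp2a5 and Cyp2c29 hold 1 TATA box and 1 AGGTCA each, and Cyp3a13 holds none of the 4 motifs. TATAAA occurred in 23 of the 37 member windows, against 13.6% of all 32544 promoters, and AGGTCA in 14 of 37, against 16.25%. GCGTG occurred in 4 of 37 (Cyp2b10, Cyp2c68, Cyp2j9 and Cyp2r1), against 32.6% of all promoters, and TTCNNNGAA in 0 of 37, against 8.33%. A match is a description of letters, and no match says only that these letters are not in the window.

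The comparison of the betaine-supplemented knockout with the knockout asked what betaine changed when the enzyme is missing. No member was called, 0 higher and 0 lower of 41, with 2 at an unadjusted p under 0.05 in limma and 0 called by limma voom on recovered reads. Among all genes 0.0169% were called higher and 0.0253% lower, which is 2 and 3 genes. The median log2 fold change of the members was -0.01, and that of all genes was 0.00. Without wild type replicate 3, which enters the fit through the shared estimate of spread, Cyp2b10 was called, so that 1 member was higher and 0 lower, against 1.11% and 1.2% of all genes. A fit of only these 2 groups, which also leaves that library out, called 0 members, with 6 at an unadjusted p under 0.05 in limma, against 0.135% of all genes higher and 0.16% lower.

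Cyp2b10 (chromosome 7, bases 25897620 to 25926624) is the mouse gene used most often as a readout of CAR. It measured 6.86, 5.19 and 1.71 FPKM in the betaine group, from 244, 203 and 58 reads, against 0.385, 0.267 and 0.191 FPKM in the knockout, from 11, 8 and 6 reads. Each betaine library lay above each knockout library. The log2 fold change was 2.54 ± 1.73 with all libraries (limma adjusted p = 0.416) and 2.54 ± 0.39 without wild type replicate 3 (limma adjusted p = 0.0375). In the fit of only these 2 groups it missed the threshold (limma adjusted p = 0.0611). Without wild type replicate 3, Cyp2b10 reached an average of 0.5 FPKM only through the betaine group, the group in which it was called higher. The neighbouring Cyp2b9 (bases 26173411 to 26210661) measured 37.3, 7.97 and 1.46 FPKM in the betaine group, against 0.118, 1.052 and 0.0358 FPKM in the knockout, again without overlap. Its log2 fold change was 3.42 ± 2.28 (limma adjusted p = 0.405), and without wild type replicate 3 it was 3.42 ± 0.95 (limma adjusted p = 0.0806). The adjacent Cyp2b13 gave 2, 2 and 1 reads in the betaine group and 0 reads in each knockout library, within what a count of 0 allows. The promoters of both genes, chosen after these values were seen, lie on the plus strand at chr7:25897408-25897707 and chr7:26173159-26173458. Capitals mark the same motifs.
Cyp2b10: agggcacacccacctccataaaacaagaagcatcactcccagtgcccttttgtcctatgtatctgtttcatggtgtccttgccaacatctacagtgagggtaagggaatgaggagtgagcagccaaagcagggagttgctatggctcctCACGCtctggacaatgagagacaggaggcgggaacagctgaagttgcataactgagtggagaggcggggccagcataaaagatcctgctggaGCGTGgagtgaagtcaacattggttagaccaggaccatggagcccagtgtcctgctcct
Cyp2b9: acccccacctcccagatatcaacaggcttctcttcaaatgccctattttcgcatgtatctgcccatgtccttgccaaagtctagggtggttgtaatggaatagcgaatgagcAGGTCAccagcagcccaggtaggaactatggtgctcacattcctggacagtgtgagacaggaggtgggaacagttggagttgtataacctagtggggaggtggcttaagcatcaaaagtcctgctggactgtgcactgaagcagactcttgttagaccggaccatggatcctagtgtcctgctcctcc
Cyp2b10 holds GCGTG at 2 places, 1 of them on the other strand and so written CACGC, and Cyp2b9 holds 1 AGGTCA.

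**Figure D4:**
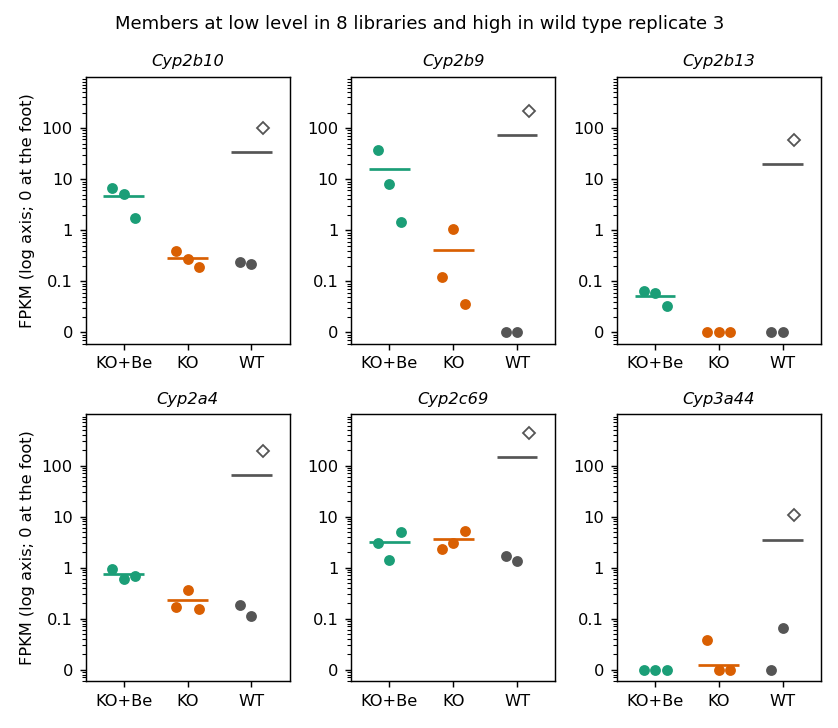
FPKM of 6 members that were low in 8 libraries and high in wild type replicate 3 (open diamonds), on a log axis with values of 0 at the foot, for the betaine-supplemented knockout (KO+Be), the knockout (KO) and the wild type (WT). Points are libraries and lines are means of 3 libraries. For Cyp2b10 and Cyp2b9 the betaine libraries lie above the knockout libraries and below wild type replicate 3.

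Cyp2j9 and Cyp2a4 had the next largest changes with betaine. Cyp2j9, an arachidonic acid epoxygenase, measured 1.30, 0.841 and 0.504 FPKM in the betaine group, against 0.998, 3.04 and 2.78 FPKM in the knockout, where replicate 1 lay among the betaine values. Its log2 fold change was -0.95 ± 0.35 (limma adjusted p = 0.163). Cyp2a4 measured 0.922, 0.590 and 0.680 FPKM in the betaine group, from 27, 19 and 19 reads, against 0.170, 0.365 and 0.155 FPKM in the knockout, from 4, 9 and 4 reads. Its log2 fold change was 0.76 ± 1.95 with all libraries (limma adjusted p = 0.845) and 0.76 ± 0.21 without wild type replicate 3 (limma adjusted p = 0.0753). Cyp2a4 shares windows with Cyp2a5, which measured 310, 383 and 333 FPKM in the betaine group and 178, 218 and 392 FPKM in the knockout. Whether shared reads entered the Cyp2a4 value was not tested.

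The members called between knockout and wild type showed these values with betaine. Cyp1a2 measured 612, 493 and 523 FPKM in the betaine group, overlapping the 555 to 649 FPKM of the knockout (log2 fold change -0.12 ± 0.16). Cyp2c29 measured 158, 199 and 145 FPKM in the betaine group, against 98.5 to 165 FPKM in the knockout (0.48 ± 0.25, limma adjusted p = 0.279). Cyp2a12 measured 224, 159 and 194 FPKM in the betaine group, all below the 225 to 261 FPKM of the knockout (-0.35 ± 0.15, limma adjusted p = 0.205). Cyp3a13 measured 47.5, 36.3 and 48.6 FPKM in the betaine group and 39.9 to 42.5 FPKM in the knockout (0.09 ± 0.18). Cyp2a5 measured 310, 383 and 333 FPKM in the betaine group, within the 178 to 392 FPKM of the knockout (0.46 ± 0.26, limma adjusted p = 0.321). Cyp2u1 and Cyp2j6 differed by -0.02 ± 0.54 and 0.00 ± 0.14, with overlapping values. On TPM scaling, where the median of all genes in this comparison was 0.30, 13.5% of all genes were called higher and 0.624% lower, and of the members 0 higher and 0 lower, with 9 at an unadjusted p under 0.05 in limma.

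The betaine-supplemented knockout was also compared with the wild type, and the knockout comparison above uses the same wild type libraries. Cyp1a2 and Cyp2a5 were higher and Cyp2c29 and Cyp3a13 were lower, 2 and 2 of 41, with 9 at an unadjusted p under 0.05. Among all genes 5.87% were called higher and 5.78% lower, so the members' shares were near the background. The median log2 fold change was 0.03 over the members and 0.00 over all genes.

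Cyp1a2 measured 612, 493 and 523 FPKM in the betaine group, against 322, 311 and 241 FPKM in the wild type, a log2 fold change of 0.90 ± 0.16 (limma adjusted p = 0.0119, and 0.0516 when only these 2 groups entered the fit). Cyp2a5 measured 310, 383 and 333 FPKM in the betaine group, against 145, 118 and 129 FPKM in the wild type, a log2 fold change of 1.38 ± 0.26 (limma adjusted p = 0.0143), and the call ended without betaine replicate 3 (limma adjusted p = 0.0518). The betaine libraries were closer together for this gene than the knockout ones, with means of 342 ± 37.3 FPKM and 263 ± 114 FPKM (SD, n = 3 each). Cyp2c29 had a log2 fold change of -1.27 ± 0.25 (limma adjusted p = 0.0166), which without betaine replicate 3 was -1.17 (limma adjusted p = 0.0669). Cyp3a13 had -0.79 ± 0.18 (limma adjusted p = 0.0261), and its call ended whichever betaine library was left out (limma adjusted p of 0.052 to 0.0633). For all 4 genes the betaine and wild type values did not overlap. With wild type replicate 3 left out all 4 stayed called, at 0.77 for Cyp1a2, 1.38 for Cyp2a5, -1.06 for Cyp2c29 and -0.61 for Cyp3a13 (limma adjusted p of 0.0156 to 0.0319).

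Leaving out wild type replicate 3, the counts were 6 higher and 2 lower of 41, against 5.59% and 6.4% of all genes. Cyp2u1, Cyp2a4, Cyp2b9 and Cyp2b10 joined the higher calls. Cyp2a4 is a member only through wild type replicate 3, since it averaged 0.397 FPKM in the other 8 libraries. With the filter recomputed it dropped out, which left 5 higher and 2 lower of 36 members. Among all 11823 genes then tested, 660 were higher and 757 lower. Cyp2b9 and Cyp2b10 stayed among the 36 only through the betaine group, the group in which they were called higher. They averaged 15.6 and 4.585 FPKM there, against 0.402 and 0.281 FPKM in the knockout. In wild type replicates 1 and 2 they averaged 0 and 0.229 FPKM. Cyp2u1 measured 8.11, 7.25 and 9.0 FPKM in the betaine group, against 3.997 and 3.79 FPKM in wild type replicates 1 and 2, a log2 fold change of 0.97 ± 0.15 (limma adjusted p = 0.00811). Cyp2b10 stood at 0.240 and 0.217 FPKM in those wild type libraries, from 8 and 7 reads, and its log2 fold change was 2.63 ± 0.44 (limma adjusted p = 0.0117). Cyp2b9 was listed at 0 there, so its fitted change (limma adjusted p = 0.0456) depends on the pseudocount and is no bound. Cyp2a4, at 0.183 and 0.113 FPKM from 5 and 3 reads, had a log2 fold change of 0.92 ± 0.24 (limma adjusted p = 0.0382). In wild type replicate 3 Cyp2b10, Cyp2b9 and Cyp2a4 measured 102, 215 and 191 FPKM, above every betaine library.

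The largest changes not called with all libraries were again those that wild type replicate 3 set. Cyp2b13 had a log2 fold change of -2.16 ± 1.64, Cyp2d9 of 1.93 ± 1.43, Cyp2c69 of -1.87 ± 1.88 and Cyp2a4 of -1.82 ± 1.95, with limma adjusted p of 0.401 to 0.566. Without that library they were 0.14, -0.08, 0.71 and 0.92, each on the other side of 0. Cyp2d9 measured 699, 705 and 646.5 FPKM in the betaine group, against 713, 731 and 10.7 FPKM in the wild type. Cyp2c69 measured 3.02, 1.43 and 4.96 FPKM in the betaine group, against 1.72, 1.37 and 438 FPKM in the wild type.

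**Figure D5:**
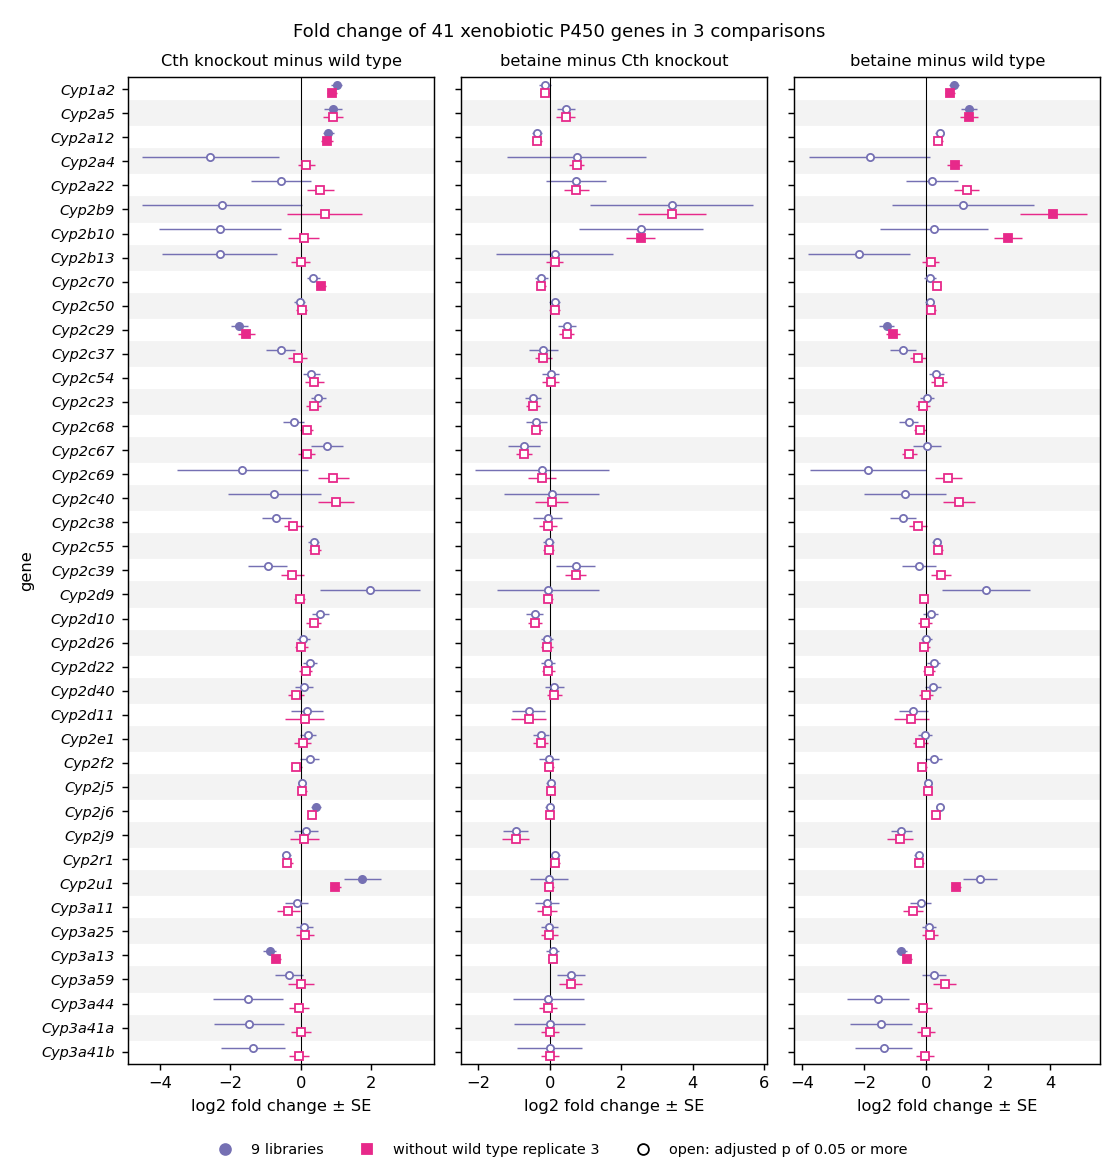
Log2 fold change of each member, on log2(FPKM + 0.5), with its SE in the 3 comparisons. Circles are the fit with 9 libraries and squares the fit without wild type replicate 3, filled where the adjusted p was under 0.05. The bars of Cyp2b9, Cyp2b10, Cyp2a4 and Cyp2d9 are long with all libraries and short without that library, except for Cyp2b9, whose SE was 0.95 or more in each.

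Wild type replicate 3 was more than 1 log2 unit above every other library for 13 of the 41 members, against 1.25% of all genes, and more than 1 log2 unit below for 2 members, against 0.852%. None of the other 8 libraries stood apart from the rest by that measure for any member. Where wild type replicate 3 was the highest, however, no other library could stand above by it. Among the other 8 libraries, betaine replicate 1 held Cyp2b9 at 37.3 FPKM, where the next highest was 7.97 FPKM. It held Cyp2a22 at 2.40 FPKM, where the next highest was 0.632 FPKM. The 13 were Cyp2a4, Cyp2a22, Cyp2b9, Cyp2b10, Cyp2b13, Cyp2c37, Cyp2c38, Cyp2c39, Cyp2c40, Cyp2c69, Cyp3a41a, Cyp3a41b and Cyp3a44, and the 2 were Cyp2d9 and Cyp2u1. Cyp2a4 was 207-fold, Cyp2c69 82.4-fold and Cyp2c40 11.1-fold above the highest of the other 8 libraries. Cyp3a41a gave 371 reads in wild type replicate 3 and 0 in every other library, and Cyp3a41b and Cyp3a44 gave 283 and 373 reads there and at most 2 elsewhere. Cyp3a41a, Cyp3a41b, Cyp3a44, Cyp2a4 and Cyp2b13 are among the 13 through the choice of members, since they reached 0.5 FPKM only through this library. Among genes that averaged 0.5 FPKM or more in the other 8 libraries too, it stood above every other library for 8 of 36 members, against 1.03% of genes, and below for 2, against 0.86%. These values describe a single library and carry no test.

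Among members that passed in no comparison, several kept close levels throughout. Cyp2j5 measured 217 to 241 FPKM in the betaine group, 210.1 to 233 FPKM in the knockout and 206 to 227 FPKM in the wild type. Cyp2c50, at 252 to 343 FPKM, 242 to 287 FPKM and 242 to 289 FPKM, and Cyp2d26, at 422 to 629 FPKM, 495 to 563 FPKM and 451 to 534 FPKM in the same order of groups, also overlapped. Cyp2r1, which takes part in activating vitamin D, measured 5.92 to 6.26 FPKM in the betaine group, 4.86 to 6.23 FPKM in the knockout and 6.25 to 8.29 FPKM in the wild type. It missed the threshold in the knockout (-0.41 ± 0.14, limma adjusted p = 0.0563), and it passed without knockout replicate 1 or wild type replicate 2. On TPM, and wherever the exon length trend was removed, it was also called lower. Cyp2d10, Cyp2c23, Cyp2c54, Cyp2c55, Cyp2c67, Cyp2c68, Cyp2d22, Cyp2d40, Cyp2d11, Cyp3a25 and Cyp3a59 were not called in any comparison, with or without wild type replicate 3.

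Genes that work with the P450 enzymes were counted from lists of 17 partners and haem enzymes, 35 tested regulators, and target and marker genes outside the members. Of the 17 partners and haem enzymes 5 rose and 2 fell in the knockout relative to the wild type, against 12.8% and 12.7% of all genes. Alad, an early enzyme of haem synthesis, measured 80.4, 94.7 and 96.7 FPKM in the knockout, against 47.8, 48.4 and 49.9 FPKM in the wild type (log2 fold change 0.88 ± 0.13, limma adjusted p = 0.0057). Cyb5a, the electron carrier cytochrome b5, measured 519, 548.5 and 492 FPKM in the knockout, against 292, 268 and 256 FPKM in the wild type (0.93 ± 0.17, limma adjusted p = 0.00769). Cyb5r3, its reductase (0.76 ± 0.15), and Uros, another haem enzyme (0.80 ± 0.17), also rose. The reductase Por was not called, at 40.0 to 48.2 FPKM in the knockout, 55.1 and 57.9 FPKM in wild type replicates 1 and 2 and 162 FPKM in replicate 3. In the betaine group against the wild type 4 rose (Alad, Uros, Cyb5r3 and Cyb5a) and 0 fell, against 5.87% and 5.78% of all genes. Against the knockout, betaine gave 0 calls and 4 at an unadjusted p under 0.05 in limma, with Cpox at 0.70 ± 0.19 and Cyb5b at 0.86 ± 0.24. Without wild type replicate 3, 5 rose and 1 fell in the knockout, against 9.99% and 11.7% of all genes. Cyb5b, which had fallen with all libraries, lost its call there (limma adjusted p = 0.0734). In the betaine group against the wild type Cyb5a then lost its call (limma adjusted p = 0.0567) and Por fell (-0.60, limma adjusted p = 0.035).

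Of the 35 regulators tested, 3 rose and 13 fell in the knockout relative to the wild type, against 12.8% and 12.7% of all genes. Without wild type replicate 3 the counts were again 3 and 13, against 9.99% and 11.7%. The list was chosen with earlier results of these data known. Ppara, the fatty acid receptor that also acts on P450 genes, measured 3.78, 5.22 and 6.07 FPKM in the knockout, against 28.4, 19.9 and 29.6 FPKM in the wild type (-2.26 ± 0.29, limma adjusted p = 0.00546). The coactivator Ncoa2 (-0.80 ± 0.12), the repressor Nfil3 (-0.86 ± 0.15) and the orphan receptor Rora (-0.94 ± 0.17) also fell. The xenobiotic receptors themselves were not called, with log2 fold changes of -1.004 ± 0.33 for Ahr (limma adjusted p = 0.0541), 0.17 ± 0.22 for Nr1i2 and -0.01 ± 0.17 for Nr1i3. In the betaine group against the wild type 4 rose and 8 fell, among them Foxa3 (-1.38 ± 0.20), Hnf4a (-0.97 ± 0.15), Nfil3 (-0.90 ± 0.15) and Ppara (-1.46 ± 0.29). Of all genes 5.87% rose and 5.78% fell. Without wild type replicate 3 the regulator counts were 3 and 10, against 5.59% and 6.4% of all genes. Against the knockout, betaine gave 0 calls and 8 at an unadjusted p under 0.05 in limma, with the smallest p for Rxrg (0.89 ± 0.17) and Ctnnb1 (0.97 ± 0.26). Betaine without wild type replicate 3 in the fit gave 2 higher calls here, Rxrg (limma adjusted p = 0.0472) and Ahr (0.88, limma adjusted p = 0.0494). Ahr measured 5.46, 7.61 and 7.89 FPKM with betaine, against 3.70, 2.79 and 4.16 FPKM in the knockout, and 6.06, 4.98 and 14.0 FPKM in the wild type, where replicate 3 was the highest.

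None of the 6 tested Ahr targets outside the members passed in any comparison, and in limma 0, 0 and 1 of them were at an unadjusted p under 0.05 in the order of the comparisons above. Tiparp measured 0.815, 0.566 and 1.00 FPKM in the knockout, against 0.932, 0.961 and 2.46 FPKM in the wild type (-0.52 ± 0.29). Nqo1 measured 5.89, 3.02 and 4.77 FPKM in the betaine group, against 2.86, 2.22 and 3.55 FPKM in the knockout and 1.88, 1.73 and 4.20 FPKM in the wild type, and without wild type replicate 3 it passed in betaine against wild type (1.09, limma adjusted p = 0.0292). Of the 21 tested CAR and PXR targets outside the members, 5 rose and 5 fell in the knockout relative to the wild type. Of all genes 12.8% rose and 12.7% fell. Without wild type replicate 3 the target counts were 4 and 5, against 9.99% and 11.7% of all genes. Aldh1a7, an aldehyde dehydrogenase (1.23 ± 0.20), and the glutathione transferase Gstm2 (0.97 ± 0.18) rose, and the transporter Abcc3 (-0.84 ± 0.17) and the bilirubin conjugating enzyme Ugt1a1 (-0.72 ± 0.16) fell. In the betaine group against the wild type 7 rose, with Aldh1a7 at 1.64 ± 0.20, Gstm2 at 1.26 ± 0.18 and Gstm4 at 1.03 ± 0.15, and 1 fell, Gadd45b at -2.48 ± 0.43. Of all genes 5.87% rose and 5.78% fell. Without wild type replicate 3 the target counts were again 7 and 1, against 5.59% and 6.4% of all genes. Against the knockout, betaine gave 0 calls and 5 at an unadjusted p under 0.05 in limma. Ugt1a1 measured 48.3, 50.6 and 44.7 FPKM with betaine, against 33.0, 24.6 and 31.6 FPKM in the knockout (0.69 ± 0.16, limma adjusted p = 0.0886, and 0.0463 without wild type replicate 3).

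Sex-biased genes outside the members moved in part with wild type replicate 3. The male-biased genes had a median log2 fold change of 1.515 in the knockout and 1.20 in the betaine group, relative to the wild type. Without that library these medians were 0.48 and -0.09. The median of the female-biased genes in the knockout was -1.44 with it and 0 without it. Of 15 male-biased genes 0 were called in each comparison, with 2, 0 and 2 at an unadjusted p under 0.05 in limma in the order above. Without wild type replicate 3, 2 rose in the knockout (Cyp4a12b and Mup20) and 1 in the betaine group, relative to the wild type. Of all genes 9.99% and 5.59% then rose in these comparisons. Serpina12 measured 22.2, 15.0 and 11.7 FPKM in the knockout, against 10.4, 6.75 and 1.83 FPKM in the wild type (1.51 ± 0.55, limma adjusted p = 0.0715). Of 13 tested female-biased genes 1 fell in the knockout, Acot3 (-1.82 ± 0.53, limma adjusted p = 0.0357, and 0.0642 without wild type replicate 3, where Abcd2 passed instead). In the betaine group against the wild type Sult1e1 rose and Acot3 and Fmo2 fell, and against the knockout 0 were called and 0 were at an unadjusted p under 0.05. With all libraries 12.8% of all genes rose and 12.7% fell in the knockout relative to the wild type. For the betaine group these shares were 5.87% and 5.78%. The part of sex in any value was not tested. The labels give none, and by Xist and Y-linked RNA only wild type replicate 3 differed from the rest.

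Zonation markers were counted because many members are pericentral. Of 11 pericentral genes 2 rose in the knockout, Lect2 (0.85 ± 0.21) and Rhbg (0.79 ± 0.21), and 1 fell, Slc1a2 (-0.52 ± 0.13). In the betaine group against the wild type 3 rose and 1 fell, with Slc1a2 at -1.14 ± 0.13. Of 12 periportal genes 0 rose and 3 fell in the knockout, Cps1 (-1.42 ± 0.31), Ctsc (-1.05 ± 0.24) and Gldc (-0.54 ± 0.14), and 0 rose and 2 fell in the betaine group against the wild type, Pck1 (-2.11 ± 0.53) and Ctsc (-0.87 ± 0.24). The calls of Pck1 and Ctsc with betaine ended without wild type replicate 3, with limma adjusted p of 0.0806 and 0.0636, and Rhbg missed in the knockout (limma adjusted p = 0.0556). Betaine against the knockout gave 0 calls in either list with all libraries, with 1 pericentral and 4 periportal genes at an unadjusted p under 0.05 in limma, and without wild type replicate 3 Slc1a2 fell (-0.63, limma adjusted p = 0.0463). These counts stand beside the background of all genes given above for each comparison.

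Markers of other tissues and cell types were also read beside the members. Of the 5 hepatocyte markers, 2 rose and 0 fell in the knockout relative to the wild type, with a median log2 fold change of 0.31. Without wild type replicate 3, which held the highest sum of 62940 FPKM, 1 rose and 0 fell. The betaine group gave 0 hepatocyte calls against either other group. Of the 6 pancreas markers Prss1, Pnlip, Cpa1 and Amy2a5 were at 0 in every library, and the list's sum of 8.26 to 12.8 FPKM in the betaine group, 11.9 to 14.5 FPKM in the knockout and 5.60 to 6.42 FPKM in the wild type was almost all Cela1. That gene rose in the betaine group (0.79 ± 0.17) and in the knockout (1.03 ± 0.17), both relative to the wild type. Of the 5 intestine markers Alpi, Lct and Sis were at 0 in every library. The 7 Kupffer cell markers summed to 59.6 to 163 FPKM in the betaine group, 78.5 to 95.7 FPKM in the knockout and 124 to 157 FPKM in the wild type, with 0 of 7 called in each comparison and 2, 0 and 0 at an unadjusted p under 0.05 in limma in the order of the comparisons above. Of the 6 sinusoidal endothelial markers 1 fell in the betaine group (Clec4g, -0.55) and 1 in the knockout (Kdr, -0.80) relative to the wild type, 0 without wild type replicate 3. In betaine against wild type 5 of the 6 were at an unadjusted p under 0.05 in limma, with a median log2 fold change of -0.69, and 2 were in the knockout, with a median of -0.42. Their sum was 21.2 to 32.9 FPKM, 25.8 to 33.6 FPKM and 32.2 to 56.7 FPKM in the order betaine, knockout and wild type. The 6 stellate cell and 6 cholangiocyte markers summed to 24.0 to 35.9 and 19.9 to 41.7 FPKM in the betaine group, 25.3 to 32.04 and 22.0 to 45.8 FPKM in the knockout, and 19.0 to 52.0 and 20.9 to 46.8 FPKM in the wild type, with 0 called of those tested when all libraries were used. Without wild type replicate 3, 1 stellate marker rose in the knockout and 1 in the betaine group, both relative to the wild type. In that fit 1 cholangiocyte marker fell in the knockout relative to the wild type. The marker counts also stand beside the background of all genes given above for each comparison. The part of any of these cell types in the members' changes was not tested.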

How the data were processed

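Poly(A) RNA of mouse liver was sequenced in 9 libraries with a NEBNext Ultra library kit, per the labels' protocols. The submitters' processing notes name HISAT2 2.0.5, featureCounts 1.5.0-p3, DESeq2 1.16.1 and the build mm10, without their roles. The authors deposited FPKM values for 54532 genes, with no counts. The low values were whole multiples of what 1 read is worth: 98.3% to 98.6% of values of up to 20 reads came out whole within 0.05 of a read. The recovered library denominators followed median-of-ratios size factors (r = 0.999999 over 9 libraries, a description) more closely than read totals (r = 0.813), so the FPKM values deposited were already scaled between libraries.

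Gene symbols, biotypes and exon coordinates came from GENCODE M21 (GRCm38), which matched 54495 of the gene IDs. FPKM values were tested with limma 3.58.1 in R 4.3.3 (trend and robust empirical Bayes) on log2(FPKM + 0.5), over the 11852 genes that averaged 0.5 FPKM or more, in 1 fit of all 3 groups, two-sided, with Benjamini-Hochberg adjustment over all genes and a threshold of 0.05. Tables were made in Python 3.11.15 (pandas 2.3.3, numpy 2.4.6) and figures in matplotlib 3.10.9. The fit was tested on simulated data. Alternatives were 20 planned settings, among them other pseudocounts and filters, TPM, quantile normalization, removal of the exon length trend, a replicate block, leaving out each library, and limma voom on recovered reads, and 2 added after the values were seen. Every member was named, with per-library values for those called and for the 4 largest changes among those not called in each comparison. From each list up to 4 called genes with the smallest p were named, or 2 where none was called, and any further list gene was picked with its values in view. The members and lists were chosen with earlier results of these data known. Replicate numbers were not used as pairs in the main fit, since the labels state no pairing. A protein identity table was not used here.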

Additional observations from a re-analysis of the deposited data

How the results depend on the processing

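Of the counts of members called, 105 values under the alternatives stayed within 1.5 times the count given above and 27 did not, and of the fold changes of called members 193 kept direction and call and 49 lost the call. Of those of named members not called, 240 kept direction without a call, 3 gained a call and 16 changed direction. Knockout against wild type gave 2 higher with no filter on low values, on TPM, with a replicate block and the exon length trend removed, or with only the 2 groups fitted, and 3 higher without wild type replicate 3 and the length trend. Of all genes, in that order, 913 of 25420, 584 of 11852, 537 of 11849, 1449 of 11852 and 813 of 11849 were higher. The main fit called 1519 of 11852 higher. On TPM knockout against wild type gave 4 members lower, against 30.7% of all genes. Betaine against knockout gave 1 higher without wild type replicate 3, also with the filter recomputed or the length trend removed. Of all genes, in that order, 131 of 11852, 129 of 11823 and 118 of 11849 were higher. Betaine against wild type gave 1 higher with the block and length trend removed or only 2 groups, 5 higher without wild type replicate 3 with the filter recomputed or the length trend removed, and 1 lower with no filter or only 2 groups. Of all genes, in that order, 245 of 11849, 206 of 11852, 660 of 11823 and 652 of 11849 were higher. Lower were 250 of 25420 with no filter and 147 of 11852 with only 2 groups. The cause of these shifts was not tested.

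With each library left out in turn, members called higher numbered 2 to 4 and lower 2 to 3 in knockout against wild type, higher 0 to 1 in betaine against knockout, and higher 1 to 6 and lower 0 to 2 in betaine against wild type. Calls among all 11852 genes moved too. They ran from 401 to 1623 higher and 495 to 1608 lower in knockout against wild type. Betaine against knockout gave 0 to 478 higher and 0 to 400 lower, and betaine against wild type 187 to 746 higher and 164 to 759 lower. The log2 fold changes of knockout against wild type then ran between -3.98 and 0.16 for Cyp2a4, between -3.49 and 0.0929 for Cyp2b10, and between -3.70 and 0.68 for Cyp2b9. Those of betaine against wild type ran between -3.31 and 0.14 for Cyp2b13, between -0.0796 and 2.94 for Cyp2d9, between -3.23 and 0.71 for Cyp2c69, and between -3.22 and 0.92 for Cyp2a4. Every positive value, and the negative one for Cyp2d9, came without wild type replicate 3. Without that library and with the filter recomputed, Cyp2b10 was 0.0929 and Cyp2b9 0.68 against wild type in the knockout, and Cyp2d9 -0.0796 and Cyp2c69 0.71 in the betaine group. With the length trend removed instead, Cyp2b9 was 0.42 in the knockout, while Cyp2a4 (-0.12), Cyp2b10 (-0.12) and Cyp2b13 (-0.26) were negative there, and Cyp2b13 0.012, Cyp2d9 -0.17, Cyp2c69 0.57 and Cyp2a4 0.78 in the betaine group.

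On TPM scaling, ratios of summed level moved. Betaine over knockout was 1.36 for Cyp2a (1.06 on FPKM), 1.18 for Cyp2c (0.920), 1.157 for Cyp2d (0.898) and 1.31 for Cyp2j (1.01), and knockout over wild type was 0.780 for Cyp2j (1.047 on FPKM) and 0.695 for Cyp3a (0.921). Without wild type replicate 3 the Cyp2b ratio was 88.4 for betaine and 2.99 for knockout over wild type, against 0.161 and 0.00543 with all libraries. The mean wild type sum was then 0.229 FPKM, near the floor. The betaine sums were 44.2, 13.2 and 3.20 FPKM and the knockout sums 0.504, 1.32 and 0.227 FPKM, so single libraries weigh heavily. With the replicate block, members called were 4 higher and 2 lower, 0 and 0, and 2 and 2 in the 3 comparisons. Of all 11852 genes, 1139 were higher and 1071 lower, 0 and 0, and 362 and 309 in the same order. Same-numbered libraries correlated at -0.227 to 0.098 and differently numbered ones at -0.137 to 0.263. In knockout against wild type the same-numbered values (0.0487 to 0.098) lay above the others (-0.0874 to 0.000786). In the other comparisons the same-numbered values were negative (-0.227 to -0.0277). With 3 libraries per group these values cannot decide whether the numbers pair the libraries. Low members such as Cyp2b10 in the knockout rest on 6 to 11 reads, which limits their precision.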
